A study of Mus musculus with 12 samples.

Results

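Wild-type mouse hearts that were infarcted and treated with NECA were compared with the hearts of sham vehicle mice, across all genes. NECA, or N-ethylcarboxamidoadenosine, is a stable adenosine analogue that activates all types of adenosine receptor. The comparison uses 7 of the series' 12 libraries of myocardial tissue: 4 mice with NECA delivered locally into the infarcted myocardium, and 3 mice whose titles say vehicle and whose descriptions say sham. They were taken by column name, on the 56748 of 57054 gene rows that had a value in all 7 libraries. A further 3 mice with left coronary ligation and no NECA (MI mice) are used only for comparison, through 1 library each of similar depth. Ligation, NECA and its delivery all differ between the 2 main groups and cannot be told apart in a comparison of them. The sources used here do not give the vehicle, the age and sex of the mice, the part of the heart taken or the time after ligation. Libraries were made by a 3′-end method that counts transcripts near their poly(A) tail, and the 7 libraries held 1.06 to 1.33 M counts each (M stands for 1e6). Levels below are counts per 1e6 counts (CPM) after TMM scaling, which corrects for differences in library composition. Each library is labelled as a separate mouse, so the mouse is the replicate.

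After an infarct, dead muscle is cleared by monocytes and macrophages and replaced by collagen that activated fibroblasts lay down and crosslink. Heart muscle also runs a circadian clock, in which the activators Clock and Bmal1 drive the Period and Cry repressors through short E-box elements, and the PAR bZIP factors Dbp, Tef and Hlf carry the rhythm to output genes. Adenosine is released by stressed tissue and acts through 4 receptors, Adora1, Adora2a, Adora2b and Adora3, while the enzyme Nt5e (CD73) makes it outside the cell from AMP.

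Of 9202 genes tested, 4 rose and 3 fell in the NECA-treated infarcts at a Benjamini-Hochberg adjusted p under 0.05 (edgeR quasi-likelihood test, two-sided). These are 0.0435% and 0.0326% of the genes tested. The genes that rose were Cthrc1 (ENSMUSG00000054196), a secreted protein of activated fibroblasts, Itgam (ENSMUSG00000030786), the integrin chain CD11b of monocytes, macrophages and neutrophils, Lox (ENSMUSG00000024529), the enzyme that crosslinks collagen and elastin, and the clock repressor Per2 (ENSMUSG00000055866). The genes that fell were Tubb4b (ENSMUSG00000036752), a beta-tubulin, Alas1 (ENSMUSG00000032786), the first and rate-limiting enzyme of haem synthesis outside red cells, and Slc41a3 (ENSMUSG00000030089), a magnesium transporter of the mitochondrion. The median log2 fold change of all tested genes was -0.01. Of all tested genes 4413 were higher (47.96%) and 4789 lower, the share beside which the counts of higher and lower list members below stand. At an unadjusted p under 0.05, 384 genes were higher (4.17%) and 362 lower (3.93%).

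**Figure D1:**
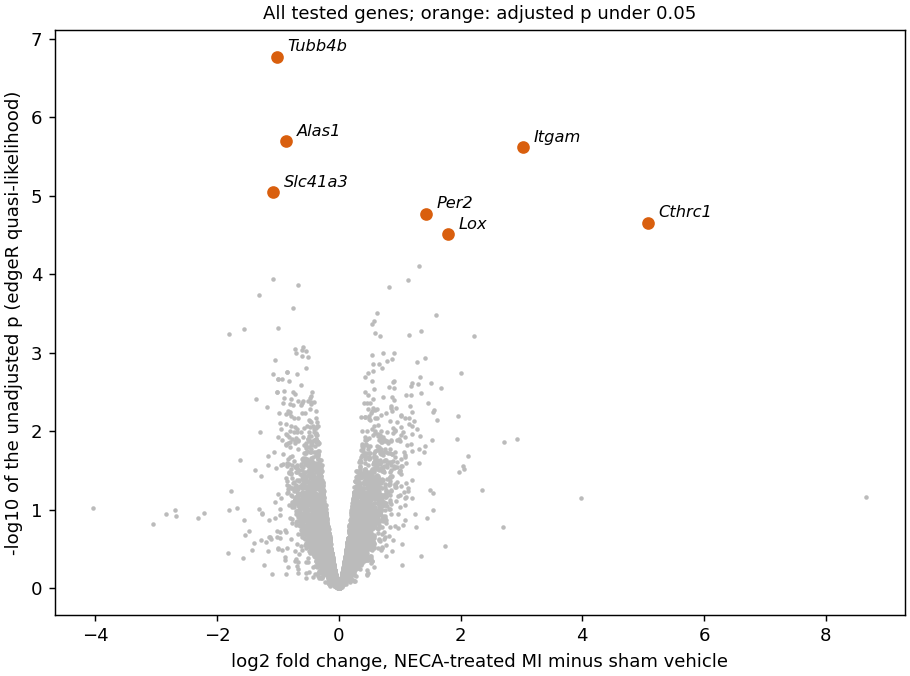
Each point is 1 of 9202 tested genes, by log2 fold change of NECA-treated MI over sham vehicle (x axis) and -log10 of the unadjusted p (y axis). The 7 orange genes passed the adjusted threshold; Tubb4b has the smallest p and Cthrc1 the highest fold change among them.

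The libraries were not all alike, and several carried transcripts of tissue outside the ventricle. Sham vehicle mouse 3 held atrial and fat transcripts: Myl7, the atrial myosin light chain, stood at 718 CPM there against 0 and 0.796 CPM in mice 1 and 2 of that group, and the fat hormone Adipoq at 99.2 CPM against 0 in both. Of 9 atrial markers, 8 were at their highest in that mouse among the 7, and their summed level ran from 156 to 7234 CPM over the sham vehicle mice and from 91.1 to 319 CPM over the NECA-treated mice. The adipocyte sum (9 markers) ran from 377 to 1719 CPM and from 520 to 819 CPM. NECA-treated mouse 4 held skeletal muscle transcripts, with the fast myosin Myh4 at 99.7 CPM against 0 in the other 6 mice. Its fellow marker Tnnt3 was at 46.0 CPM there and at most 1.53 CPM elsewhere. NECA-treated mice 1 and 2 carried Adipoq at 17.2 and 19.9 CPM, and mice 3 and 4 none. The adipocyte scores of NECA-treated mice 1 and 2, the mean log2 distance of the markers from the sham vehicle mean, were 1.67 and 2.12, against 3.53 in sham vehicle mouse 3 and -2.04 and -1.49 in mice 1 and 2 of that group. Their epicardial and mesothelial scores, 1.34 and 1.05, likewise lay between the 2.17 of sham vehicle mouse 3 and the -1.39 and -0.78 of those mice. The ventricular muscle markers were present in every library: Myh6, the main myosin heavy chain of adult mouse heart, ran from 25652 to 31119 CPM. Because of sham vehicle mouse 3, a fit without that mouse is also given for most groups of genes below. In it 133 of 9385 genes rose (1.42%) and 131 fell (1.4%), all 7 genes above among them. In that fit 2 sham vehicle mice remain. The part of tissue sampling in any result was not tested.

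**Figure D2:**
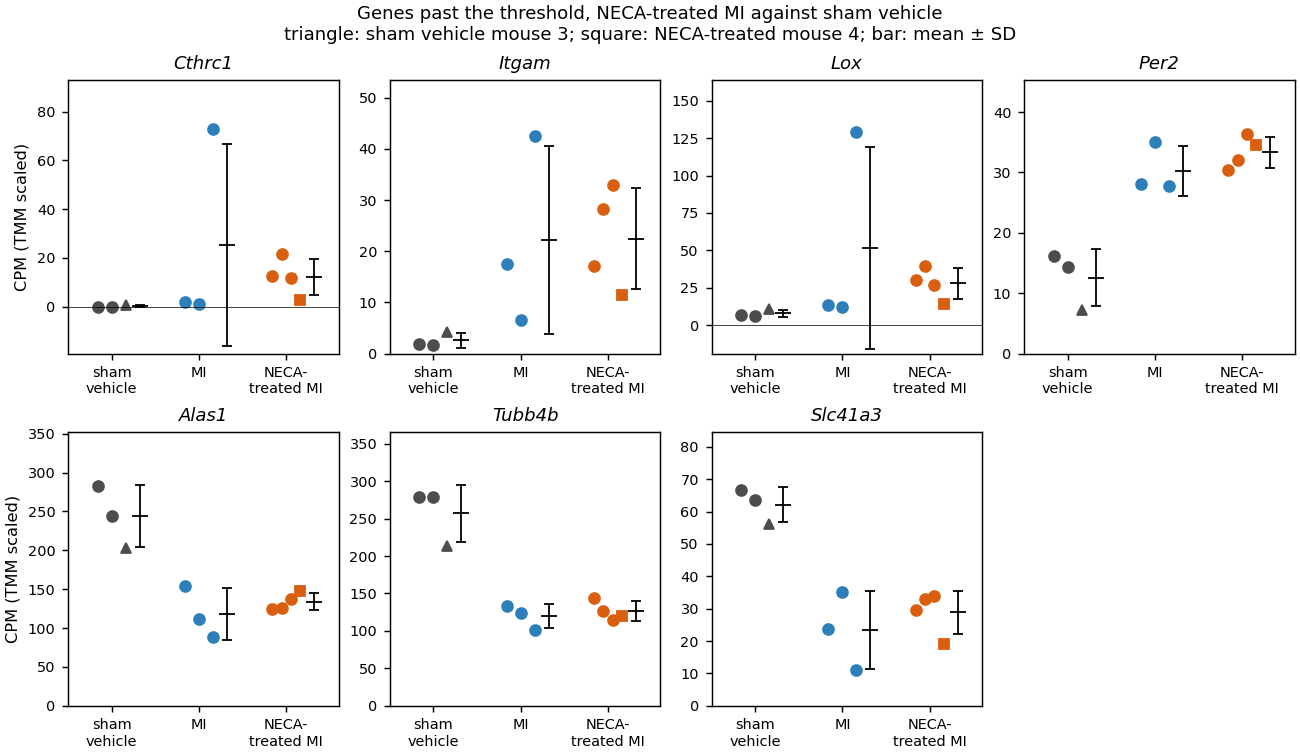
CPM (y axis, from 0 or the lower end of the SD bar) of the 7 genes past the threshold in single mice: 3 sham vehicle, 3 MI and 4 NECA-treated MI mice, with mean ± SD. In each panel all NECA-treated mice lie on one side of all sham vehicle mice. The MI mice lie on that side too, except that for Lox and Cthrc1 the margin is too small to place every MI mouse. The genes were picked for their distance from the same sham vehicle mice, so the side is a description only.

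Genes of scar-forming fibroblasts and their matrix were mostly higher in the NECA-treated infarcts, and 2 of them, Cthrc1 and Lox, passed the test. Cthrc1 was at 0, 0 and 0.719 CPM in the sham vehicle mice and at 12.5, 21.4, 11.8 and 2.88 CPM in the NECA-treated mice. The groups did not overlap, and mouse 4, the one with skeletal muscle transcripts, was the lowest of the NECA-treated mice. Over the groups this was 61 counts against 1, a ratio of 46.8 with a 95% exact interval of 8.1 to 1880 that covers counting error only. The fitted log2 value, 5.08 ± 0.90 (SE; adjusted p = 0.0336 in edgeR), depends on the prior count of the fit. Cthrc1 and, below, Itgam reached the count filter only through the NECA-treated mice, so they could be tested only because they were high there. The filter asks for 3 libraries, and Lox reached its level in 1 sham vehicle mouse and Per2 in 2, so both of these needed NECA-treated mice as well. Lox stood at 6.67, 6.37 and 10.8 CPM in sham vehicle and at 30.5, 39.8, 27.0 and 14.4 CPM in NECA-treated mice. It rose 3.47-fold (log2 fold change 1.80 ± 0.34, edgeR adjusted p = 0.0407), again with NECA-treated mouse 4 nearest to the sham vehicle mice.

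Among the fibrillar collagens, the main protein of scar, Col1a1 was at 71.5, 90.0 and 176 CPM in sham vehicle and at 302, 885, 506 and 182 CPM in NECA-treated mice. NECA-treated mouse 4 was only just above sham vehicle mouse 3, and the difference of 2.05 ± 0.70 on the log2 scale did not pass (edgeR adjusted p = 0.58). Col3a1 ran at 129, 146 and 474 CPM against 972, 1595, 920 and 470 CPM, so that mouse 4 fell within the sham vehicle range. Postn, a matricellular protein of activated fibroblasts, gave 12.4, 11.1 and 47.4 CPM against 190, 214, 181 and 54.7 CPM, without overlap (log2 fold change 2.71 ± 0.74, edgeR adjusted p = 0.496). Thbs2, a thrombospondin that binds matrix proteases, came nearer to the threshold at 1.16 ± 0.27 (edgeR adjusted p = 0.219), as did Col16a1 at 1.29 ± 0.34 (edgeR adjusted p = 0.292). Fn1, the fibronectin gene, and Sparc, a collagen-binding protein, had log2 differences of 2.36 and 1.10, neither past the threshold.

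Of 16 tested collagen genes 14 were higher and 2 lower, with a median log2 fold change of 0.95, and none passed. In the list of other matrix and crosslinking genes 32 of 36 tested members were higher, the median was 0.63, and Lox was the one that passed. The fibroblast markers gave 13 of 15 higher with a median of 0.73, and Cthrc1 passed. Groups did not overlap, with NECA-treated mice above, for 4 collagens, 7 other matrix genes and 4 fibroblast markers, where 4.19% of all tested genes were ordered so. Cthrc1 and 1 of the 36 matrix genes passed the count filter only through the NECA-treated mice. Sham vehicle mouse 3 stood apart here as well. Its fibroblast score, the mean log2 distance of the markers from the sham vehicle mean, was 0.75 against -0.35 and -0.40 in mice 1 and 2. It lay above that of NECA-treated mouse 4 at 0.47. Without sham vehicle mouse 3, 6 of 15 fibroblast markers, 9 of 40 other matrix genes and 1 of 17 collagens rose, where 1.42% of all genes did. Of the genes tested in this fit 2 fibroblast markers, 10 other matrix genes and 1 collagen reached the count filter through the NECA-treated mice alone, and among those that rose these were Cthrc1, Lox, Spp1 and Thbs3. Such members had to differ, so the counts that rose are a description. Markers of epicardium, fat and atrium also differed in this fit. Epicardial and mesothelial markers had a median log2 fold change of 2.65 (8 tested), adipocyte markers 6.41 (5 tested) and fibroblast markers 1.31. Of the 8 and the 5, 6 and 4 reached the count filter through the NECA-treated mice alone. Wt1, Lrrn4 and the atrial marker Dkk3 rose, each tested only through those mice, and no adipocyte marker passed. The fibroblast markers that rose were Cthrc1, Vim, Mfap5, Dcn, Dpt and Lum, and the collagen was Col16a1. In this fit Vim, the intermediate filament vimentin, had a log2 fold change of 1.31 ± 0.15 and Dcn, the proteoglycan decorin, one of 0.96 ± 0.16. The omitted sham vehicle mouse 3 lay within the NECA-treated range for both. It was at 303 CPM against 206 to 318 CPM for Vim and at 538 against 382 to 551 CPM for Dcn. Over all mice the differences were 0.56 and 0.44 (edgeR adjusted p = 0.844 and 0.839). In bulk tissue, more cells of a type and more RNA per cell cannot be told apart.

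Among monocyte and macrophage transcripts Itgam rose, and most others were higher without passing. Itgam was at 1.91, 1.59 and 4.31 CPM in the sham vehicle mice and at 17.2, 28.3, 32.9 and 11.5 CPM in the NECA-treated mice. It rose 8.15-fold (log2 fold change 3.03 ± 0.46, edgeR adjusted p = 0.00735), and the lowest NECA-treated mouse was above the highest sham vehicle mouse. Cd68, a lysosomal protein of macrophages, was at 4.76, 4.78 and 3.59 CPM against 12.5, 15.3, 12.7 and 12.5 CPM. Here sham vehicle mouse 3 was the lowest of the 7, and the log2 difference of 1.59 ± 0.37 had an adjusted p of 0.189 (edgeR). Lyz2, the myeloid lysozyme, stood at 115, 85.2 and 185 CPM against 264, 381, 288 and 247 CPM, with no overlap and an edgeR adjusted p of 0.354.

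In the macrophage and monocyte list 13 of 14 tested members were higher, at a median log2 fold change of 0.94. None passed, and 5 had no overlap, with NECA-treated mice above (4.19% of all tested genes were ordered so). Of the 14, 2 (Cd68 and Fcer1g) had passed the count filter only through the NECA-treated mice. Neutrophils, which also carry Itgam, left few transcripts: none of 11 reached the count filter, Ly6g was at 0 in every mouse, and their sum was 6.37 to 19.1 CPM in sham vehicle and 0 to 18.4 CPM in NECA-treated mice. None of 12 T and NK cell markers was tested either. Cd63, a lysosomal tetraspanin, ran at 30.5, 29.5 and 40.2 CPM against 60.9, 71.1, 56.6 and 49.9 CPM (log2 fold change 0.83 ± 0.18, edgeR adjusted p = 0.11). Ccl21a, which draws dendritic and T cells into lymphatics and has near-identical gene copies, gave 8.58, 9.56 and 14.4 CPM against 23.4, 31.4, 23.6 and 31.7 CPM (log2 fold change 1.31 ± 0.27, edgeR adjusted p = 0.0912). The class I histocompatibility gene H2-Q7, which also has close relatives that share reads, had a difference of 1.14 ± 0.24 (edgeR adjusted p = 0.109).

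Without sham vehicle mouse 3, 9 of 16 tested macrophage and monocyte markers rose, where 1.42% of all genes did. Of the 16, 8 reached the count filter in that fit through the NECA-treated mice alone and had to differ, and 4 of the 9 (Adgre1, Ctss, Lgals3 and Spp1) are among them, so the count is a description. Besides Spp1, which was at 0 in all 3 sham vehicle mice, they include Lyz2 (log2 fold change 1.56 ± 0.18), the cathepsin Ctss (2.11 ± 0.41), the receptor Csf1r (0.88 ± 0.19) and the complement subunit C1qb (1.08 ± 0.22). Ctss ran at 8.58, 5.57 and 21.6 CPM in the sham vehicle mice and at 27.3, 41.3, 38.0 and 14.4 CPM in the NECA-treated mice, so sham vehicle mouse 3 overlapped NECA-treated mouse 4. Those mice overlapped for Csf1r (64.0 and 58.5 CPM) and C1qb (53.9 and 53.7 CPM) too. Of the class II histocompatibility genes 3 of 5 rose in that fit, and Ccl21a, H2-Q7 and Cd63 rose too. Cd163, a scavenger receptor of resident macrophages, was at 13.3, 11.1 and 21.6 CPM against 13.3, 17.6, 11 and 14.4 CPM, with overlapping groups.

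The scores of the lists show how far each mouse lay from the sham vehicle mean. For macrophage and monocyte markers the sham vehicle mice stood at -0.17, -0.46 and 0.63, and the NECA-treated mice at 0.94, 1.27, 0.79 and 0.60. Only sham vehicle mouse 3 reached the NECA-treated range. The tubulin, core clock and clock output scores did not overlap between groups. Nor did the erythroid, glucocorticoid-induced, Krueppel-like factor, chemokine and adhesion, and iron and haem scores. These lists were picked from all those scored for their lack of overlap. The clock, glucocorticoid-induced and Krueppel-like factor lists share members, among them Per1, Tsc22d3, Klf9 and Klf15, so they are not separate observations. For the core clock the gap was narrow, from 0.258 in sham vehicle mouse 1 to 0.272 in NECA-treated mouse 2. It was narrow too for chemokine and adhesion genes, from 0.240 in sham vehicle mouse 3 to 0.259 in NECA-treated mouse 4. For iron and haem genes sham vehicle mouse 2 at -0.0451 and NECA-treated mouse 4 at -0.0462 nearly met.

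**Figure D3:**
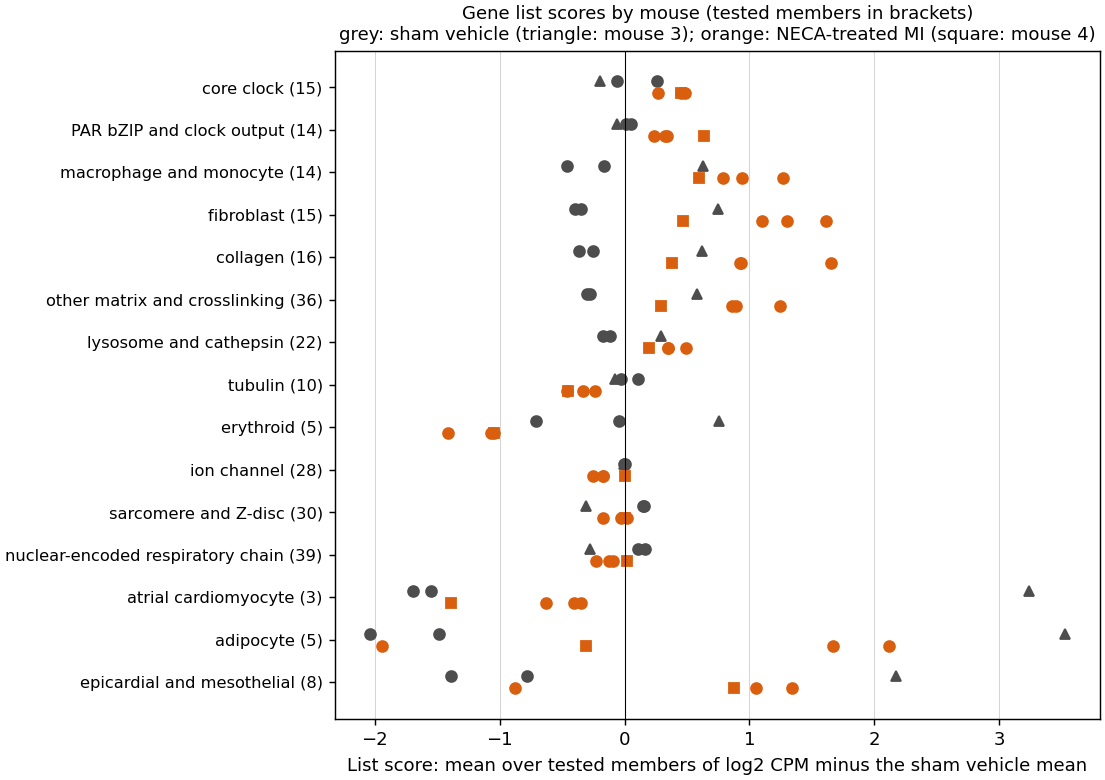
Score of each gene list (y axis, tested members in brackets) in each of the 7 mice, as the mean over members of log2 CPM minus the sham vehicle mean (x axis). Sham vehicle mouse 3 (grey triangle) lies at 0.75 for fibroblast markers, 3.24 for atrial and 3.53 for adipocyte markers, and the other sham vehicle mice lie below 0 on those 3 rows.

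Of the Period family Per2 rose in the NECA-treated hearts, and Per1 and Per3 were higher without passing. Per2 stood at 16.2, 14.3 and 7.19 CPM in the sham vehicle mice and at 30.5, 32.1, 36.3 and 34.5 CPM in the NECA-treated mice. It rose 2.70-fold (log2 fold change 1.43 ± 0.26, edgeR adjusted p = 0.0312), and the lowest NECA-treated mouse was well above the highest sham vehicle mouse. Per3 was at 47.6, 21.5 and 21.6 CPM against 83.6, 56.6, 72.6 and 91.1 CPM, also without overlap (log2 fold change 1.36 ± 0.28, edgeR adjusted p = 0.219). Per1 gave 44.8, 35.8 and 15.1 CPM against 52.4, 49.7, 74.3 and 75.8 CPM, a difference of 1.01 ± 0.33 that did not pass (edgeR adjusted p = 0.495). For all 3 genes sham vehicle mouse 3 was the lowest or close to the lowest mouse. Without it the Per2 difference was 1.11 ± 0.26 (edgeR adjusted p = 0.0136) and that of Per3 passed as well (1.15, edgeR adjusted p = 0.0372), while Per1 did not (0.63, edgeR adjusted p = 0.0803).

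Other repressors of the clock did not pass the test. Nr1d1, which represses Bmal1, was at 109, 108 and 106 CPM against 99.2, 94.1, 91.2 and 87.3 CPM, slightly lower in every NECA-treated mouse (log2 fold change -0.21 ± 0.12, edgeR adjusted p = 0.714). Ciart, a repressor of Clock and Bmal1, ran from 0.719 to 11.4 CPM in sham vehicle and from 9.29 to 16.3 CPM in NECA-treated mice, with overlap. Of the activators, Clock stood at 28.7 to 41.7 CPM against 16.1 to 33.6 CPM, and Arntl (Bmal1) and Npas2 were below the count filter. Arntl was at 2.86, 7.96 and 7.91 CPM in sham vehicle and at 3.13, 3.06, 2.53 and 0.959 CPM in NECA-treated mice, near the level of 3 counts in a library (2.26 to 2.83 CPM). In all, 11 of 15 tested core clock genes were higher, with a median log2 fold change of 0.26. In 4 the NECA-treated mice were all above the sham vehicle mice (4.19% of all tested genes), and in Nr1d1 all below (4.33%).

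The PAR bZIP factors had higher values short of the threshold. Tef stood at 159, 119 and 114 CPM against 206, 172, 192 and 241 CPM (log2 fold change 0.63 ± 0.15, edgeR adjusted p = 0.189). Hlf was at 16.2, 15.1 and 28.7 CPM against 33.6, 36.7, 34.6 and 46.0 CPM (0.88 ± 0.23, edgeR adjusted p = 0.288). Both were without overlap, and both rose in the fit without sham vehicle mouse 3, by 0.53 and 1.25. Dbp ran at 140, 94.0 and 58.9 CPM against 143, 132, 137 and 179 CPM, so that sham vehicle mouse 1 lay within the NECA-treated range. Of 14 tested members of the clock output list 12 were higher, at a median of 0.36, and 5 had no overlap (4.19% of all tested genes were ordered so). These include Nampt, the enzyme that salvages NAD (log2 fold change 0.48, edgeR adjusted p = 0.393), and Tsc22d3, the glucocorticoid-induced leucine zipper (0.55, edgeR adjusted p = 0.4). Of 20 tested glucocorticoid-induced genes 15 were higher, with a median of 0.16, and of 11 Krueppel-like factors 9, with a median of 0.24. None of either list passed. In the fit without sham vehicle mouse 3 Klf6 rose (0.93 ± 0.23, edgeR adjusted p = 0.0199), alone among both lists. The sources used here do not give the time of day at tissue collection, and its part in the clock values was not tested.

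**Figure D4:**
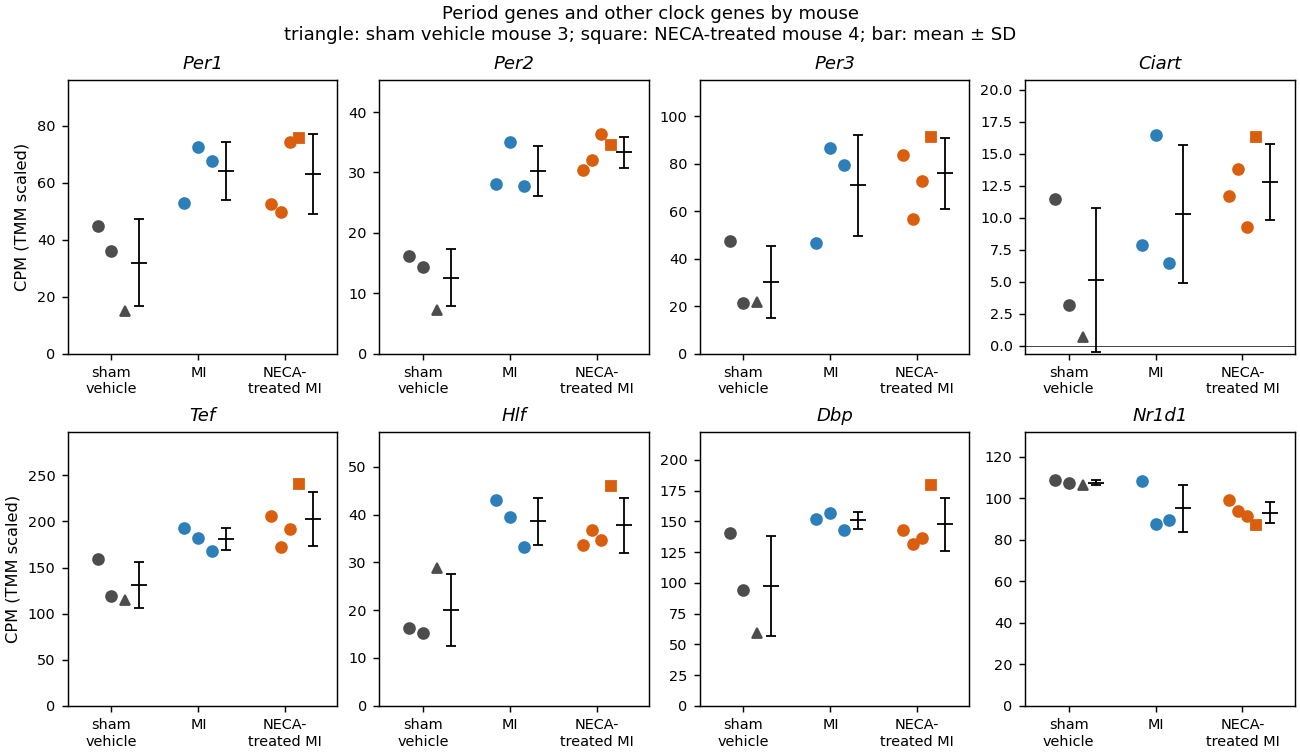
CPM (y axis) of 8 clock genes in single sham vehicle, MI and NECA-treated MI mice, with mean ± SD. Per2 and Per3 are without overlap between sham vehicle and NECA-treated mice, Dbp and Ciart overlap, and Nr1d1 is slightly lower in all 4 NECA-treated mice.

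Short promoter stretches of clock genes are shown because the known input to these genes runs through them. RefSeq windows (GRCm38.p6) from 250 bases before to 50 after a start were searched for CACGTG (the E-box), for the D-box that PAR bZIP factors bind, in the forms TTATGTAA, TTACATAA and TTACGTAA, and for TGACGTCA (the cAMP response element). The letters were sought as written; CACGTG and TGACGTCA read the same on both strands, TTATGTAA and TTACATAA are complements of each other, TTACGTAA is its own complement, and no searched motif holds another. Capitals below mark the matches, and each stretch is given 5′ to 3′ on the strand of its gene.
Per1, chr11:69098771-69098800, plus strand: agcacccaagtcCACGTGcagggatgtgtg
Per3, chr4:151044852-151044881, minus strand: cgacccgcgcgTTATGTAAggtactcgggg
Per3, chr4:151044805-151044834, minus strand: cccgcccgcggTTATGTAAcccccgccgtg
Ciart, chr3:95882262-95882291, minus strand: ggaggCACGTGcagaaccgCACGTGtctgg
Tef, chr15:81802534-81802563, plus strand: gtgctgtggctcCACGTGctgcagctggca
Hlf, chr11:90390918-90390937, minus strand: ggtgcgggcccTGACGTCAc
Slc41a3, chr6:90619021-90619050, plus strand: agcagcccatggCACGTGtgcagaggacac

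In Per1 the E-box began 166 bases before the start, and in Per3 the D-box copies began 205 and 158 bases before it. Of 28 clock and output genes with a window, 8 held CACGTG, where 7.15% of all 32851 windows did. Per3 alone of the 28 held a D-box (1.06% of all windows) and Hlf alone held TGACGTCA (1.79%). A gene counted if any of its windows held the motif, so these counts of genes and shares of windows are not comparable. Among the genes that passed the test, Slc41a3 held an E-box 213 bases before its start, and no searched motif lay before the start in the windows of Alas1, Tubb4b and Itgam. Per2, Lox and Cthrc1 had no window in the source used and were not searched. These matches describe letters, and the data hold no measure of binding.

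Of the haem and iron genes Alas1 fell, and globin transcripts were lower in all NECA-treated mice or nearly so. Alas1 stood at 283, 244 and 203 CPM in the sham vehicle mice and at 125, 125, 138 and 148 CPM in the NECA-treated mice. It fell 1.82-fold (log2 fold change -0.86 ± 0.13, edgeR adjusted p = 0.00735), and no NECA-treated mouse reached the lowest sham vehicle mouse. Tfrc, the transferrin receptor that brings iron into cells, was at 213, 163 and 94.1 CPM against 53.9, 40.5, 31.2 and 51.8 CPM. The groups did not overlap, and the sham vehicle mice differed widely from one another (log2 difference -1.81 ± 0.31, edgeR adjusted p = 0.219). Without sham vehicle mouse 3 it was -2.09 ± 0.16 (edgeR adjusted p = 5.06e-10).

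Hmox1, the enzyme that breaks haem down, had higher values in the NECA-treated mice, at 2.86, 3.98 and 7.91 CPM against 12.5, 19.1, 11 and 9.59 CPM (log2 fold change 1.36 ± 0.41, edgeR adjusted p = 0.393; 1.89 and 0.0278 without sham vehicle mouse 3). Of 27 tested iron and haem genes 10 were higher and 17 lower, with a median of -0.02, so the list as a whole lay near the median of all genes. Alas1 was its only member past the threshold. Red cell transcripts were lower in all 5 tested members of the erythroid list, at a median of -1.30. Of these, 4 had no overlap (4.33% of all tested genes were ordered that way). Hbb-bs, an adult beta-globin, stood at 503, 659 and 1293 CPM against 341, 302, 331 and 306 CPM (log2 fold change -1.36 ± 0.31, edgeR adjusted p = 0.4). Alas2, the red cell form of the enzyme, was at 19.1, 29.5 and 43.1 CPM against 13.3, 8.41, 12.7 and 16.3 CPM (-1.30 ± 0.29, edgeR adjusted p = 0.129). Sham vehicle mouse 3 was the highest for both. Without it, Hbb-bs, Hba-a1 and Hba-a2 fell, by 0.87, 0.65 and 0.79 on the log2 scale. Globin genes are near-identical copies, and how much blood each tissue sample held was not tested.

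Tubulin genes differed among themselves: Tubb4b fell, and several others overlapped between the groups. Tubb4b was at 279, 279 and 213 CPM in the sham vehicle mice and at 145, 126, 115 and 120 CPM in the NECA-treated mice. It fell 2.03-fold (log2 fold change -1.02 ± 0.13), with the smallest adjusted p of all tested genes (edgeR, 0.00156). The alpha-tubulin Tuba4a stood at 1102, 1060 and 571 CPM against 377, 408, 434 and 506 CPM (-1.08 ± 0.20, edgeR adjusted p = 0.109), and Tuba8 at 249, 221 and 113 CPM against 93.0, 93.3, 104 and 97.8 CPM (-0.996 ± 0.24, edgeR adjusted p = 0.354). In both, sham vehicle mouse 3 was nearest to the NECA-treated mice, and both fell in the fit without it, by 1.34 and 1.29 on the log2 scale. Tuba1b was lower by less (-0.45 ± 0.14, edgeR adjusted p = 0.398). Tubb5, Tubb6, Tubb2a and Tuba1a overlapped between groups, with log2 fold changes of -0.14, -0.08, -0.16 and 0.06 (these 4 were chosen after their values were seen). Over the list 8 of 10 tested tubulins were lower, with a median of -0.27. In 4 all NECA-treated mice lay below all sham vehicle mice (4.33% of all tested genes were ordered that way).

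Slc41a3 stood at 66.7, 63.7 and 56.1 CPM in the sham vehicle mice and at 29.7, 32.9, 33.8 and 19.2 CPM in the NECA-treated mice. It fell 2.13-fold (log2 fold change -1.09 ± 0.19, edgeR adjusted p = 0.0206), and the groups lay far apart.

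Transcripts of the muscle itself differed little when all 7 mice were used. Myh6 had a log2 fold change of -0.06 ± 0.14 and Atp2a2, the calcium pump of the sarcoplasmic reticulum, one of -0.10 ± 0.14. Myh7, the myosin of fetal and stressed mouse ventricle, was at 140, 180 and 91.3 CPM against 316, 362, 390 and 128 CPM, where NECA-treated mouse 4 stayed within the sham vehicle range (1.13 ± 0.47, edgeR adjusted p = 0.634). Myom2, an M-band protein of the sarcomere, was at 922, 825 and 750 CPM against 1193, 1188, 1272 and 1209 CPM, a narrow and separate range (0.55 ± 0.13, edgeR adjusted p = 0.219). The cardiac transcription factor Tbx20 ran lower, at 89.6, 93.2 and 109 CPM against 64.1, 54.3, 56.6 and 71.9 CPM (-0.66 ± 0.14, edgeR adjusted p = 0.11). Potassium channel genes Kcnh2 and Kcnk3 had differences of -0.60 and -0.41, and the pacemaker channel Hcn4 one of -1.02, none past the threshold. In the fit without sham vehicle mouse 3 Tbx20 and Kcnk3 fell, by 0.58 ± 0.15 and 0.48 ± 0.12 (edgeR adjusted p = 0.027 and 0.0148). Kcnh2 and Hcn4 did not pass there.

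List by list, 22 of 30 sarcomere genes, 17 of 25 calcium cycling genes, 20 of 28 ion channels, 23 of 30 genes of glycolysis and hypoxia and 35 of 39 nuclear-encoded respiratory chain genes were lower. Their medians lay between -0.21 and -0.09, and none of their members passed. Of all 9202 tested genes 4789 were lower. Sham vehicle mouse 3 was the lowest of the 7 mice for the sarcomere and respiratory chain scores. Without it, 6 of 30 sarcomere genes fell and Myom2 rose, 5 of 25 calcium cycling genes fell, 6 of 30 of glycolysis and hypoxia fell, and 3 of 15 mitochondrially encoded genes fell. Only 2 of 39 respiratory chain genes and 1 of 28 ion channels fell. Of all genes tested in that fit 1.4% fell. Actc1, cardiac actin, was at 12226 and 10005 CPM in the 2 remaining sham vehicle mice, at 6157 CPM in mouse 3, and at 7101, 6311, 6762 and 7466 CPM in the NECA-treated mice. It fell by 0.70 ± 0.09 on the log2 scale in that fit. Casq2, the calcium store protein of the sarcoplasmic reticulum, fell by 0.77 ± 0.11, Egln3, an oxygen-sensing hydroxylase, by 0.80 ± 0.16, and Vegfa, the vessel growth factor, by 0.46 ± 0.11. For each of these the omitted sham vehicle mouse 3 lay within the NECA-treated range, at 640, 46.0 and 232 CPM. Over all 7 mice their differences were -0.55, -0.52 and -0.31 and did not pass (edgeR adjusted p = 0.418, 0.58 and 0.605).

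**Figure D5:**
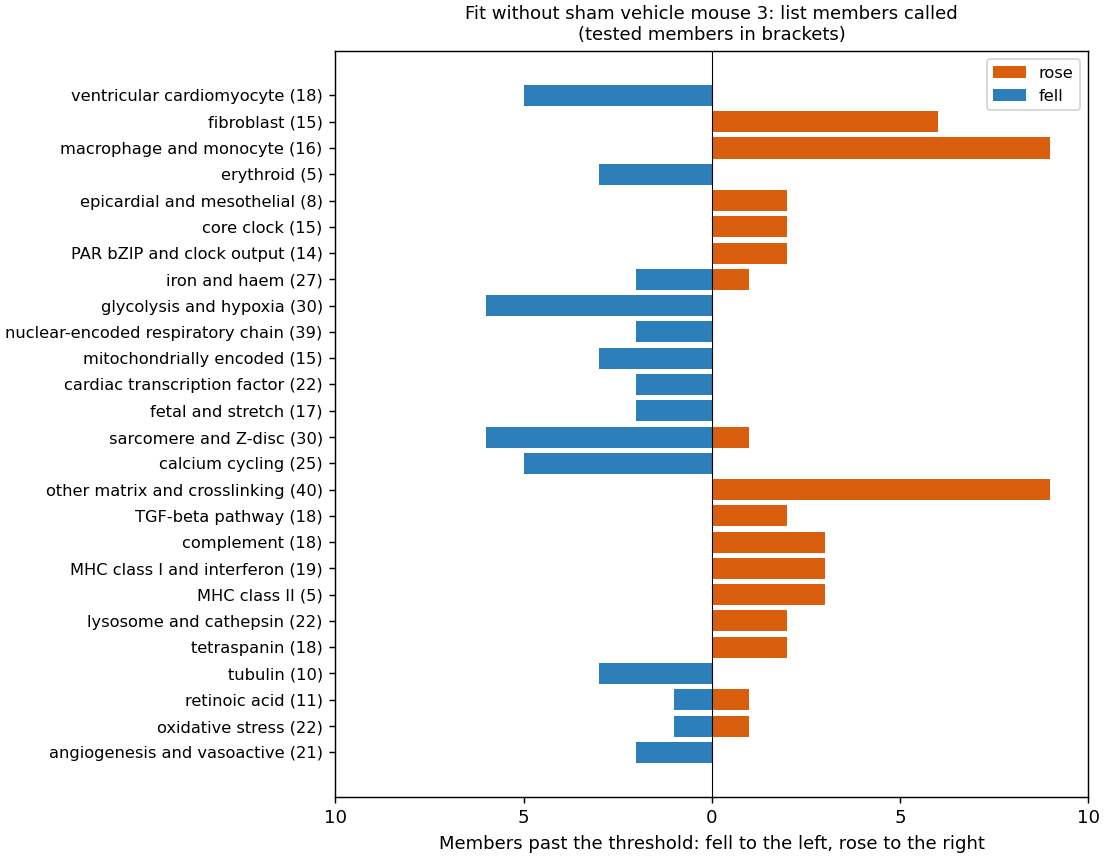
Number of list members past the threshold in the fit of 4 NECA-treated against 2 sham vehicle mice, without sham vehicle mouse 3 (x axis, fell to the left and rose to the right), for every list with at least 2 such members (y axis, tested members in brackets). Macrophage and other matrix lists have 9 members each that rose, and sarcomere and glycolysis lists have 6 each that fell.

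The genes that sense and handle adenosine showed no change past the threshold. Adora1 was at 11.4, 12.7 and 24.4 CPM in the sham vehicle mice and at 8.60, 14.5, 9.29 and 8.63 CPM in the NECA-treated mice (log2 fold change -0.67 ± 0.33, edgeR adjusted p = 0.629). Adora2a ran at 6.67, 11.1 and 3.59 CPM against 6.25, 7.65, 10.1 and 6.71 CPM, with full overlap. Adora2b was at 3.59 CPM or less and Adora3 at 1.59 CPM or less in every mouse, and neither was tested. Nt5e gave 8.58, 10.4 and 9.34 CPM against 13.3, 13.8, 25.3 and 14.4 CPM, higher in all 4 NECA-treated mice and short of the threshold (0.81 ± 0.32, edgeR adjusted p = 0.549). The adenosine transporter Slc29a1 and the kinase Adk had differences of -0.04 and 0.01. In the adenosine list 8 of 15 tested genes were higher and 7 lower, with a median of 0.01. None passed in the fit without sham vehicle mouse 3 either. Adora1 rested on 9 to 34 counts per library and Adora2a on 5 to 14, so only large differences were detectable at this depth.

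Whether the change from sham vehicle differed from that of infarcts without NECA was tested directly, as NECA-treated MI minus MI in a fit over 10 mice. Of 9506 genes none passed (0%), with 575 at an unadjusted p under 0.05 and a smallest adjusted p of 0.795 in edgeR, and none passed in DESeq2. MI levels are scaled in this fit. Per2 was at 28.1, 35.1 and 27.7 CPM in the MI mice, and its difference from the NECA-treated mice was 0.16 ± 0.23 on the log2 scale. Tubb4b was at 133, 124 and 102 CPM (difference 0.10 ± 0.16), Alas1 at 155, 112 and 87.8 CPM (0.19 ± 0.18) and Slc41a3 at 23.7, 35.1 and 11.1 CPM (0.36 ± 0.29). For these 4 genes the MI mice lay below or above all sham vehicle mice on the same side as the NECA-treated mice. The genes past the threshold were picked for their distance from those same sham vehicle mice. The side on which the MI mice lay is therefore a description only. The MI mice lay above all sham vehicle mice for Itgam as well. For Lox and Cthrc1 the margin was too small to place every MI mouse. The lowest MI mouse was at 12.1 CPM for Lox and 1.10 CPM for Cthrc1, against at most 10.8 and 0.719 CPM in sham vehicle mice. Both of these Cthrc1 values lie below the level of 3 counts in their libraries, 3.09 and 2.36 CPM. Itgam was at 17.6, 6.58 and 42.5 CPM (0.01 ± 0.52).

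The matrix genes could not be compared as closely, because 1 MI mouse stood far from the other 2. Lox was at 13.2, 12.1 and 129 CPM and Cthrc1 at 1.76, 1.10 and 73.0 CPM in MI mice 1, 2 and 3, and the NECA-treated mice lay between. The differences were -0.87 ± 0.83 and -1.03 ± 1.16, errors as large as the values. Both changes from sham vehicle share the same 3 sham vehicle mice, so their likeness is not given as a result. The immediate early gene Egr1 was at 17.6, 15.4 and 31.4 CPM in MI mice and at 11.7, 4.59, 5.91 and 8.63 CPM in NECA-treated mice, all below the MI mice (-1.46 ± 0.39, unadjusted p = 0.00114 and adjusted p = 0.795 in edgeR), against 13.3, 11.1 and 27.3 CPM in sham vehicle mice.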

How the data were processed

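The authors deposited expected counts per gene from RSEM, rounded to whole numbers, and log2(TPM + 1) values. Reads were aligned with STAR to GRCm39 and checked with FastQC 0.11.9, per the submitters' processing notes. Sources used here give no annotation release, strand setting or collapsing of molecular identifiers. RSEM shares reads among near-identical genes. Symbols for 52073 of 56748 rows came from GENCODE M21, of another build.

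The test was the robust quasi-likelihood test of edgeR 4.0.16 (R 4.3.3), after filterByExpr and TMM scaling, with Benjamini-Hochberg adjustment, over the 7 mice alone. Scores use log2 CPM with a prior count of 2. The code was tested on simulated data. DESeq2 1.42.0, limma 3.58.1 on the deposited log2 values, other scalings, no count filter, a replicate block and leaving out each mouse were alternatives. The fit without sham vehicle mouse 3 and NECA-treated mouse 4 together, and library totals over tested genes, were added after seeing the data.

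The comparison, gene lists and named genes were chosen with earlier results of these data known. Named are called genes that reach 10 CPM without overlap, up to 4 members per list by p or level, and the adenosine receptors with Nt5e. Others were chosen after their values were seen, among them the members named only for the fit without sham vehicle mouse 3, and Cd163, Egr1, Arntl and Npas2. Between 19.9% and 24.6% of counts in the 7 libraries were mitochondrially encoded, and 11.9% to 14.7% were assigned to nuclear genes that resemble these, whose reads cannot be told apart from theirs.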

Additional observations from a re-analysis of the deposited data

Results flagged for a closer look

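Among the 4 NECA-treated mice, 1 mouse lay far from the other 3 for 4 of the 79 genes examined, by a gap to the nearest mouse that, over the whole range, exceeded Dixon's critical value. Chance alone flags about 1 group in 20. The gap was 0.929 of the range for Cd68, where mouse 2 was highest at 15.3 CPM against 12.5 to 12.7 CPM. For Nt5e it was 0.908, with mouse 3 at 25.3 CPM against 13.3 to 14.4 CPM. For Adora1 it was 0.883, with mouse 2 at 14.5 CPM against 8.60 to 9.29 CPM. For Ankrd23, a stretch-responsive ankyrin-repeat protein, it was 0.837, with mouse 4 at 138 CPM against 197 to 208 CPM. Sham vehicle, with 3 mice, was not examined in this way.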

How the results depend on the processing

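With 7 genes past the threshold, the count was 7 with RLE scaling, without mitochondrial genes and with totals over tested genes, 11 without scaling factors, 107 without a count filter, 17 with DESeq2 (5 of the 7 among them), 2 without robust estimation and 1 (Tubb4b) in the fit of 10 mice. It was 0 with limma on log2(TPM + 1), where 613 genes had an unadjusted p under 0.05 and the smallest adjusted p was 0.155. Leaving out 1 mouse gave 0 to 264 genes: 264 without sham vehicle mouse 3, 17 without mouse 1 and 1 without mouse 2; 2, 1, 0 and 10 without NECA-treated mice 1, 2, 3 and 4, with 589 genes at an unadjusted p under 0.05 (edgeR) where it was 0. Without sham vehicle mouse 3 and NECA-treated mouse 4 together it was 332, all 7 genes included. Each of the 7 kept its direction in every alternative. Tubb4b passed in 16 of 18 (adjusted p at most 0.155), Itgam in 12 of 18 (at most 0.593), Cthrc1 in 10 of 15 (at most 0.84), Alas1 and Slc41a3 in 10 of 18 (at most 0.212 and 0.522), and Lox and Per2 in 8 of 18 (at most 0.867 and 0.316). The cause was not tested.

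Mice of equal number did not pair (correlations of their deviations -0.106, -0.173 and -0.206). With the replicate number as a block 9 genes passed, 4 of the 7 among them, and 1 gene passed between NECA-treated MI and MI. That comparison gave 8 genes without a count filter and 0 to 2 with 1 mouse left out (2 without MI mouse 1).

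The Nppa difference, -2.69 on the log2 scale over all 7 mice with sham vehicle mouse 3 the highest, turned to 0.35 without that mouse and 0.64 without NECA-treated mouse 4 as well. Other differences that had not passed changed sign too: without sham vehicle mouse 3 Adora2a (-0.24), Slc29a1 (0.05) and Adk (-0.07), and without both mice Adora2a (-0.19) and Adk (-0.12). Slc29a1 also reached 0.013 without scaling and 0.17 with limma, and -0.11 to 0.054 with 1 mouse left out. Adk reached -0.061 with the block and -0.070 to 0.080 with 1 mouse left out, Nppa -3.21 to 0.35 and Adora2a down to -0.24. Myh6 reached 0.0068 without scaling and 0.11 with limma. Pdk4, at -0.86 over all mice, ran from -1.28 to 0.50 (without sham vehicle mouse 2). List medians kept their sign for fibroblast, collagen, other matrix, macrophage, core clock, clock output, tubulin, erythroid, sarcomere, calcium, ion channel and respiratory chain genes. The iron and haem and mitochondrially encoded medians changed sign without scaling and without sham vehicle mouse 1. The iron and haem median also did so without NECA-treated mouse 2, the mitochondrially encoded median with limma, and the glycolysis median with limma. The adenosine median changed sign in 4 settings: the fit of 10 mice, and without sham vehicle mouse 2, NECA-treated mouse 1 or NECA-treated mouse 2.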

Other observations

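Immunoglobulin transcripts differed between mice within both groups. Ighm, the heavy chain of IgM, stood at 9.53, 4.78 and 124 CPM in the sham vehicle mice and at 346, 81.8, 6.76 and 210 CPM in the NECA-treated mice, and the light chain Igkc at 0, 0 and 44.6 CPM and at 247, 50.5, 0.845 and 126 CPM. Mesothelial transcripts were lowest in the same 3 mice: Upk3b was at 3.81, 9.56 and 178 CPM and at 49.2, 48.9, 7.60 and 41.2 CPM. Sham vehicle mice 1 and 2 and NECA-treated mouse 3 were thus low in both, and the other 4 mice high. Pdk4, the fasting-induced kinase that restrains pyruvate oxidation, was at 589 CPM in sham vehicle mouse 2 and between 79.1 and 187 CPM in the other 6 mice. Rgs5, a pericyte gene, stood at 355, 329 and 244 CPM in sham vehicle and at 386, 528, 475 and 482 CPM in NECA-treated mice (log2 fold change 0.60 ± 0.15, edgeR adjusted p = 0.219). Kdr, the VEGF receptor of endothelial cells, was at 191, 253 and 188 CPM against 145, 158, 149 and 169 CPM (-0.44 ± 0.13, edgeR adjusted p = 0.386). These genes were chosen after their values were seen.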
